A study of Mus musculus with 9 samples.

Results

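The collagen genes of the mouse main olfactory epithelium (MOE) were examined as a group. They were every row of the count table whose symbol has the form Col, a number, a and a number, with at least 10 reads summed over the 9 libraries. All 44 rows of that form passed, out of 24421 gene rows in the table and 20213 genes that passed the same minimum of 10 reads. The 44 genes encode chains of 27 collagen types and were sorted into 6 stromal fibrillar, 11 stromal microfibrillar and fibril-associated, 9 basement membrane, 9 bone and cartilage, 4 transmembrane and 5 other collagens.

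The study removed TAAR enhancer 1, a DNA element between Taar1 and Taar2 on chromosome 10, to ask what it does to the trace amine-associated receptors (TAARs) of olfactory sensory neurons. Whole MOE of C57BL/6 mice labelled postnatal day 14 was profiled by polyA-selected RNA-seq in 3 wild type (WT), 3 TAAR enhancer 1 +/- (het, heterozygous) and 3 TAAR enhancer 1 -/- (homo, homozygous) mice, 1 library per mouse, named here by genotype and the number in the label (het 1). The deletion was made by CRISPR-Cas9 in C57BL/6J zygotes and kept as 1 line, and WT mice were littermates. The study's reporting summary gives an older age for mice of this line, and the labels' age is used here. That summary also describes the study's mouse lines as of mixed background, C57BL/6J and another strain.

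Collagens are secreted or membrane proteins whose chains wind around each other as trimers. Fibrillar collagens form the cables of connective tissue, fibril-associated and microfibrillar collagens coat and link them, and type IV collagen forms the net of basement membranes under epithelia and around vessels. In the olfactory mucosa the sensory epithelium rests on the lamina propria, a connective tissue with vessels, glands and nerve bundles, which in turn lies on the bone and cartilage of the turbinates and septum.

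Library depth was 24583906 to 32631951 gene counts, of which collagen genes took 1.41 to 1.79%. Summed Taar2 to Taar5, the check of the genotype labels, was 9.11 to 10.3 CPM (reads scaled to a common library size) in WT, 5.34 to 6.54 in het and 0.0387 to 0.106 in homo libraries. Summed vomeronasal receptor genes, which mark the vomeronasal organ of the nasal septum and not the MOE, stood at 64.4 CPM in het 1, 113 in homo 2 and 65.4 in homo 3, against 14.5 to 17.2 CPM in the other 6 libraries. The medians, the main edgeR counts and the sums that separated genotypes among the collagen genes, and the log2 fold changes of single collagen genes, are also given without those 3 libraries, a choice made after seeing the data. Values of the other gene lists are given for all 9 libraries only. P-values measure the spread between these mice, since nothing in the labels says more about how they were raised or processed.

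Whole tissue was used, so the collagen reads are not those of the lamina propria alone. Fibroblast markers summed to 605 to 687 CPM, endothelial and mural markers to 653 to 764, osteoblast and osteocyte markers to 1068 to 1288, osteoclast markers to 910.5 to 1178 and chondrocyte markers to 57.5 to 76.0. Type I collagen, the main collagen of both loose connective tissue and bone, therefore cannot be assigned to either in these libraries. In whole tissue, fewer cells of a type and less RNA per cell cannot be told apart.

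The promoter windows of the collagen genes differed in their base composition. The RefSeq table held a window of 250 bases before to 50 bases after the start for 35 of the 44 genes, and 4 are shown. Col4a1 and Col4a2, the 2 chains of the common type IV trimer, are shown because they start head to head and their windows share 78 bases. Col3a1 and Col11a1 are shown for contrast as a stromal and a cartilage fibril chain. Capitals mark, on either strand, the CCAAT box by the letters of its name, the GC box as GGGCGG, the TATA box as TATAAA, the SOX core as ACAAAG and the RUNX core as ACCACA, and no marked stretches overlap each other.
Col4a1 promoter, GRCm38.p6, chr8:11312777-11313076, minus strand: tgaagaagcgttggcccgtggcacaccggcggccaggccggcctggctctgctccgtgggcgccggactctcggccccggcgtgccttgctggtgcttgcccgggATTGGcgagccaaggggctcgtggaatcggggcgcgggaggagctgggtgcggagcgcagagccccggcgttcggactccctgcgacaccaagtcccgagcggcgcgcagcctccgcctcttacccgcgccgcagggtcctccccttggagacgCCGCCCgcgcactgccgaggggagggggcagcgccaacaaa
Col4a2 promoter, GRCm38.p6, chr8:11312555-11312854, plus strand: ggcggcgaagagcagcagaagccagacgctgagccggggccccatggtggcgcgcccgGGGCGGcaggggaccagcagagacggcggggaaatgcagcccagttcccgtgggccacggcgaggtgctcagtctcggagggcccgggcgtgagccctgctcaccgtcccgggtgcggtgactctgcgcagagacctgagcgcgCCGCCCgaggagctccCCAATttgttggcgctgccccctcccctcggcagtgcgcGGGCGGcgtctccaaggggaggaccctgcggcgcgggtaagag
Col3a1 promoter, GRCm38.p6, chr1:45311288-45311587, plus strand: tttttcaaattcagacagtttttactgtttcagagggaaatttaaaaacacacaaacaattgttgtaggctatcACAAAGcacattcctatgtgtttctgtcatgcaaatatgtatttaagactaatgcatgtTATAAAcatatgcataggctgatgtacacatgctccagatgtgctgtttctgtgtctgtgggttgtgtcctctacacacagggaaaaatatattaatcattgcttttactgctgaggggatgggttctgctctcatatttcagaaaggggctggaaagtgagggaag
Col11a1 promoter, GRCm38.p6, chr3:114030290-114030589, plus strand: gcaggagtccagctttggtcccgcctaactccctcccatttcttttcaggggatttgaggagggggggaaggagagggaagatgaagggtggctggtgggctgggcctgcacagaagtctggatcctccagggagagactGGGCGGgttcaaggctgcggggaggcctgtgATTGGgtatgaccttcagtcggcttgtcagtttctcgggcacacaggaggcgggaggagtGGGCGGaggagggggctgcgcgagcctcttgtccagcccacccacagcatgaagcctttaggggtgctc

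The GC box that starts 10 bases into the Col4a1 transcript is, on the other strand, the one that starts 8 bases into Col4a2. The Col3a1 window is AT-rich, with 37.7% G and C, and held a TATA box 117 bases and a SOX core 176 bases before the start. By contrast, the windows of Col4a1, Col4a2 and Col11a1 held 74.0%, 73.7% and 62.3% G and C, with GC and CCAAT boxes and none of the other 3 motifs. Over all 35 collagen windows, GGGCGG was present in 22 (62.9%), against 35.9% of 27025 promoters. CCAAT was present in 12 (34.3%, against 37.9%), TATAAA in 5 (14.3%, against 14.2%), ACAAAG in 5 (14.3%, against 18.7%) and ACCACA in 2 (5.71%, against 16.9%). These matches describe the letters in the windows and were not tested as binding sites.

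Levels of different genes were compared as CPM per kilobase (kb) of the longest protein-coding transcript, averaged over the 9 libraries. Type I collagen led the set, with 1134 ± 79.3 CPM per kb for Col1a2 and 819 ± 83.6 for Col1a1 (SD, n = 9), and both chains together took 69.5% of collagen CPM. Col3a1, the partner of type I in pliable tissue, followed at 167 ± 11.02, and Col5a2, a type V chain that joins and limits the width of type I fibrils, at 62.6 ± 5.06. Of the other fibrillar chains, Col5a1 stood at 25.8 and Col5a3 at 2.60 CPM per kb.

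Among microfibrillar and fibril-associated chains, the beaded-filament chain Col6a1 was highest at 45.6 CPM per kb. Col16a1 (37.3), Col12a1 (28.9), Col6a2 (24.6), Col8a2 (22.2), Col6a3 (18.5), Col8a1 (13.9) and Col14a1 (7.48) came next. The late-described type VI chains Col6a4, Col6a5 and Col6a6 were at 0.685, 0.390 and 0.0838, far under the 3 classical type VI chains. In the basement membrane class, Col4a1 and Col4a2 were at 36.1 and 30.2 CPM per kb, and Col18a1, Col7a1 and Col15a1 at 15.1, 9.30 and 6.17. The other type IV chains were lower, with Col4a5 at 3.86, Col4a6 at 0.818, Col4a4 at 0.191 and Col4a3 at 0.150.

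The bone and cartilage class was led by the type XI chains, which seed the thin fibrils of cartilage. Col11a2 was at 58.8 and Col11a1 at 42.4 CPM per kb, above Col10a1 (21.3), the collagen of hypertrophic cartilage, and above Col9a2 (20.9), Col9a1 (10.7), Col9a3 (9.74), Col24a1 (7.48) and Col27a1 (6.71). Col2a1, the main fibril chain of cartilage, was the lowest of the 9 at 6.28, and Col11a1 exceeded it 5.15- to 8.22-fold per length in the 9 libraries. The transmembrane collagens Col13a1, Col23a1, Col17a1 and Col25a1 stood at 12.7, 9.39, 5.08 and 1.37 CPM per kb. The 5 other genes were Col26a1 (11.4), Col22a1 (9.14), Col28a1 (4.66), Col20a1 (3.41) and Col19a1 (0.122). The order within some classes, these 2 included, depended on the length. The union of all annotated exons was chosen as an alternative length after seeing the data. With it, Col13a1 stood at 8.69 against 9.26 for Col23a1, and Col26a1 at 3.87 against 8.75 for Col22a1 and 4.02 for Col28a1. In the microfibrillar and fibril-associated class, Col6a2 then stood at 13.7, below Col8a2 (21.4) and Col6a3 (15.6).

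**Figure D1:**
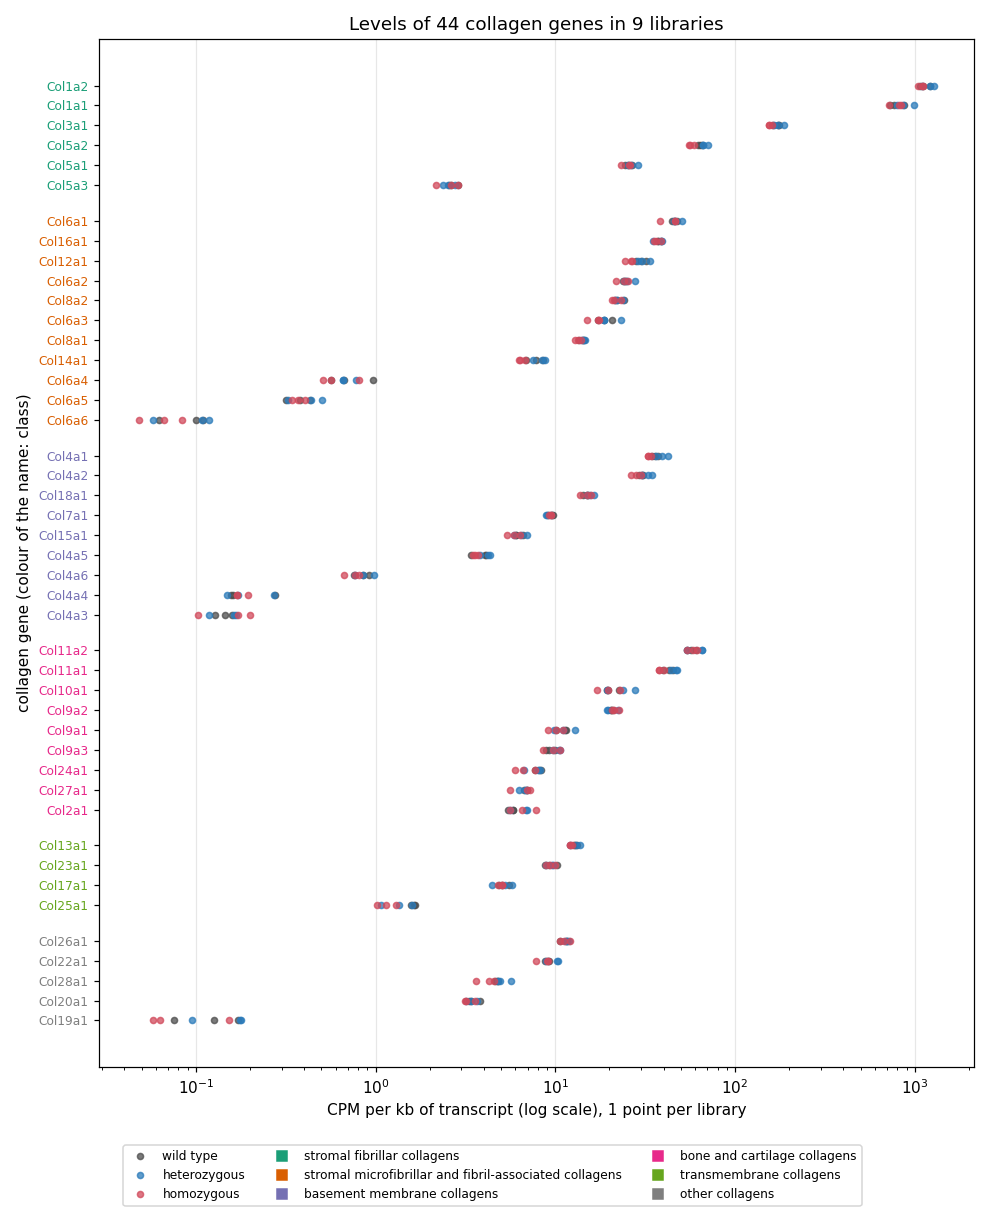
CPM per kb of transcript on a log scale (horizontal) for each of the 44 collagen genes (vertical, grouped by class and ordered by mean), with 1 point per library coloured by genotype. Col1a2 and Col1a1 sit furthest right at means of 1134 and 819, and Col6a6 furthest left at 0.0838.

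In this order, 9 of 43 neighbouring pairs had ranges over the 9 libraries that stood apart, among them Col1a2 and Col1a1, Col1a1 and Col3a1, and Col3a1 and Col5a2. The other 34 pairs overlapped. The place of Col1a2 over Col1a1 depended on the length used: the ratio of Col1a1 to Col1a2 had a median of 0.713 with the longest coding transcript and 1.497 with the union of exons. The order of these 2 chains is thus not settled by these libraries.

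Ratios between chains of the same collagen type varied from mouse to mouse to different degrees. Per length, Col4a1 was 1.13 to 1.25 times Col4a2 in the 9 libraries, a coefficient of variation (CV) of 3.08%. The other divergent type IV pairs were more variable, with Col4a5 at 4.30 to 5.62 times Col4a6 (CV 10.6%) and Col4a3 at 0.528 to 1.18 times Col4a4 (CV 30.1%), the last of these from only 314 and 473 reads in all. Col6a1 was 1.74 to 1.92 times Col6a2 (CV 3.58%), its neighbour on chromosome 10, and 2.18 to 2.68 times Col6a3 (CV 6.86%). The size of such a ratio depends on the length used, with a median of 1.82 for Col6a1 to Col6a2 with the longest coding transcript and 3.05 with the union of exons. The ratios of Col1a1 to Col1a2, Col8a1 to Col8a2, Col5a1 to Col5a2 and Col11a1 to Col11a2 had CVs of 4.65, 5.75, 6.09 and 6.78%, and those of Col9a1 to Col9a2 and to Col9a3 were 8.94 and 10.5%. Because strand use in counting is not stated, reads in the short stretch where Col4a1 and Col4a2 overlap cannot be told apart.

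Within a genotype, collagen genes varied about as much as other genes. The median CV, pooled over the 3 genotypes, was 7.31% over the 44 genes and 8.03% over all genes tested, and over genes of at least 1 CPM it was 7.27% (42 genes) and 6.49% (16167 genes). The steadiest were Col7a1, the anchoring fibril collagen, at 2.90% and Col5a2 at 3.23%. The most variable of at least 1 CPM were Col4a4 (27.7%), Col6a4 (22.9%), Col4a3 (21.7%), Col6a5 (16.1%) and Col10a1 (13.9%). Apart from Col10a1 these had few reads.

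Col4a4, a chain of the kidney and inner ear basement membranes, was at 2.77, 1.59 and 1.62 CPM in WT, 2.74, 1.51 and 1.72 in het and 1.97, 1.71 and 1.70 in homo libraries. Its partner Col4a3 was at 1.24, 1.10 and 1.35, then 1.42, 1.40 and 1.01, then 0.881, 1.46 and 1.70 CPM. Single libraries, not genotypes, set the extremes of both. Col6a4 read 4.90, 7.12 and 4.14 CPM in WT, 5.74, 4.84 and 4.84 in het, and 5.95, 4.15 and 3.75 in homo libraries. Col6a5 read 4.02, 3.51 and 2.94, then 4.06, 3.02 and 4.70, then 3.42, 3.78 and 3.17 CPM. All 3 genotypes overlapped for these 4 genes.

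The libraries differed in collagen as a whole. Het 1 held the highest value of 22 of the 44 genes and was above the 9-library mean for 41 of them, with a median of 0.15 on the log2 scale. Homo 2 held the lowest value of 19 genes and was below the mean for 39, with a median of -0.13. Both are among the 3 libraries with high vomeronasal receptor reads, while homo 3, the third, was above the mean for 14 and below it for 30, with a median of -0.03. The medians of the other 6 libraries lay between -0.05 (homo 1) and 0.03 (WT 1). The part of vomeronasal tissue in these values was not tested.

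**Figure D2:**
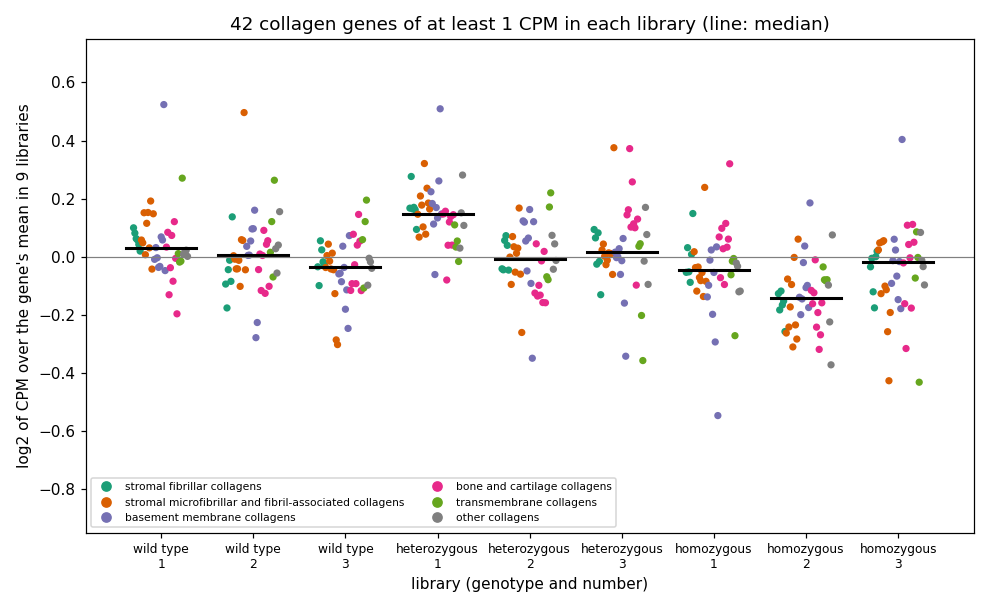
Log2 of each gene's CPM over its own 9-library mean (vertical) in each library (horizontal) for the 42 collagen genes of at least 1 CPM, with points coloured by class and a black line at the median. Genes of every class sit mostly above 0 in het 1 and mostly below 0 in homo 2.

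Summed collagen was 16597, 14706 and 15204 CPM in WT, 18019, 15457 and 16469 in het, and 15447, 14132 and 15314 in homo libraries. The means were 15502 ± 980, 16648 ± 1290 and 14964 ± 724 CPM (SD, n = 3 each). Homo libraries were all below het libraries, by 10.1% on the means, and both overlapped WT. Without het 1, homo 2 and homo 3, a choice made after seeing the data, the same difference was -3.23%, with 1 homo library left.

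Leaving out type I collagen changed the picture against WT. The other 42 genes summed to 4963, 4729 and 4752 CPM in WT, 5329, 4860.1 and 4920.2 in het, and 4644, 4304 and 4558 in homo libraries. Homo libraries were then below every WT and every het library, by 6.50% and 10.6% on the means, homo 1 included. The microfibrillar and fibril-associated class showed the same order, with 1220.1 to 1330 CPM in WT, 1250.3 to 1404 in het and 1085 to 1202 in homo libraries. Transmembrane collagens were also apart between WT (132 to 136 CPM) and homo (125 to 129.6 CPM), and basement membrane collagens between het (672 to 748 CPM) and homo (612 to 655 CPM). The class of other collagens was apart between het (149.4 to 164.8 CPM) and homo (132.3 to 148.8 CPM) as well. Bone and cartilage collagens overlapped in all 3 comparisons, at 974 to 1037, 975 to 1130.2 and 915 to 1034 CPM in WT, het and homo. Without het 1, homo 2 and homo 3, with 1 homo library left, the difference of the 42 genes was -3.54% against WT and -5.03% against het, and that of the microfibrillar and fibril-associated class -5.94% and -5.12%. The transmembrane class was then at -5.06% against WT, and the basement membrane class and the other collagens at -9.04% and -6.67% against het. No test was made of these sums.

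The first comparison asked whether loss of both copies of the enhancer moved collagen genes against WT. No collagen gene passed an adjusted p of 0.05 in edgeR's quasi-likelihood test (0 of 44, where 0.0495% of all genes passed). DESeq2 with default settings called 2, Col5a2 and Col12a1, both lower in homo mice, out of 32 collagen genes that it adjusted, against 0.781% of all genes that it adjusted. At an unadjusted edgeR p under 0.05, 9 were lower (4.71% of all genes were), namely Col3a1, Col4a1, Col5a2, Col6a3, Col11a1, Col12a1, Col14a1, Col24a1 and Col25a1, and 1 was higher, Col2a1 (4.55% of all genes were). The log2 fold change was below 0 for 37 of 44 genes (50.2% of all genes), with a median of -0.07 against -0.00057 over all genes. In 9 genes the homo libraries were all below the WT libraries (7.95% of all genes). Without homo 2 the median was -0.05, with 29 of 44 below 0, and without het 1, homo 2 and homo 3 it was -0.05, with 31 below 0.

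In het against WT mice collagen genes leaned the other way. None of 44 passed the adjusted threshold in edgeR (0.00495% of all genes did) or in DESeq2 (0.0148% of all genes that it adjusted). At an unadjusted edgeR p under 0.05, 3 were higher, Col1a1, Col4a1 and Col11a1 (1.75% of all genes were), and none was lower. The log2 fold change was below 0 in 12 of 44 genes (48.5% of all genes), with a median of 0.05 against 0.0033, and het libraries were all above WT libraries in 2, Col5a2 and Col28a1 (4.36% of all genes). Without het 1, and likewise without het 1, homo 2 and homo 3, the median was 0.01, 20 genes were below 0 and no collagen gene had an unadjusted p under 0.05.

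Homo against het mice showed the widest difference. One gene passed in edgeR, Col5a2 (1 of 44, where 0.114% of all genes passed), and DESeq2 called 6 of the 37 collagen genes that it adjusted, Col4a1, Col4a2, Col5a2, Col11a1, Col12a1 and Col14a1 (1.05% of all genes that it adjusted), all lower in homo mice. At an unadjusted edgeR p under 0.05, 13 were lower (6.2% of all genes) and none was higher. The log2 fold change was below 0 for 39 of 44 genes (50.5% of all genes), with a median of -0.15 against -0.0017, and 11 genes had all homo libraries below all het libraries (7.67% of all genes). Without het 1 the median was -0.08, and without het 1, homo 2 and homo 3 it was -0.06, with 32 genes below 0 and none called. The 3 comparisons share libraries, so they are not independent of each other.

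**Figure D3:**
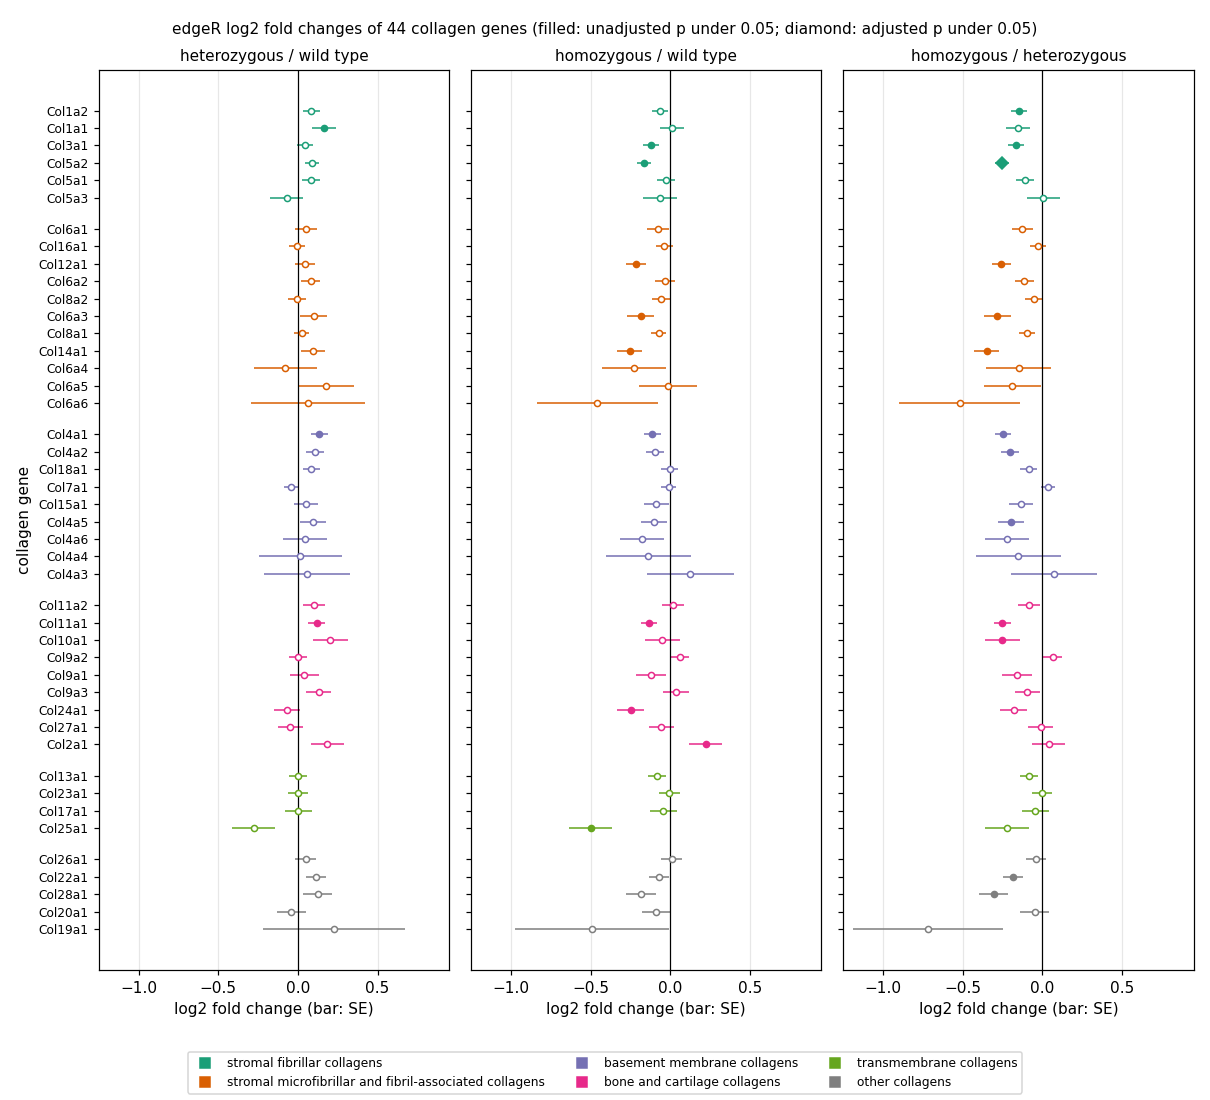
Log2 fold change (horizontal, bars show the SE) of the 44 collagen genes (vertical) in het against WT, homo against WT and homo against het mice, coloured by class, with filled symbols at an unadjusted p under 0.05 and a diamond at an adjusted p under 0.05. Most symbols lie right of 0 in the first panel and left of 0 in the other panels, and the only diamond is Col5a2.

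Col5a2 (chr1:45374321-45503282, minus strand, GRCm38) was the 1 collagen gene called by edgeR and had the same order of genotypes in every library. It read 432, 411 and 422 CPM in WT, 467, 436 and 439 in het and 390.2, 369.7 and 367 in homo libraries, so every het library was above every WT library and every WT library above every homo library. Only 2 collagen genes had this order, Col5a2 and Col28a1 (4.55%, against 0.223% of all genes). The log2 fold change was -0.25 ± 0.04 (SE) in homo against het mice (edgeR, adjusted p = 0.046), -0.17 ± 0.04 in homo against WT (adjusted p = 0.33) and 0.09 ± 0.04 in het against WT mice (adjusted p = 1.0). The call did not hold up to the loss of single libraries: without het 1, edgeR's adjusted p was 0.21, it was over 0.05 in 8 of the 9 fits that left out 1 library, and it was 0.96 without het 1, homo 2 and homo 3, with a fold change of -0.17. Without those 3 libraries the values in homo against WT and het against WT mice were -0.11 and 0.05.

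Col3a1 (chr1:45311538-45349706, plus strand), which lies tail to tail with Col5a2, read 970.3, 901 and 965 CPM in WT, 1042, 966 and 913 in het, and 896, 856 and 855 in homo libraries. Homo libraries were below all others, while WT and het overlapped. Its log2 fold change was -0.12 ± 0.05 against WT (edgeR, adjusted p = 0.48) and -0.16 ± 0.05 against het mice (adjusted p = 0.27), and without het 1, homo 2 and homo 3 they were -0.08 and -0.07.

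Type I chains did not separate the genotypes. Col1a1 read 5137, 4297 and 4532 CPM in WT, 5880.4, 4706 and 5078 in het, and 4962, 4276 and 4837 in homo libraries. Col1a2 read 6497, 5680.3 and 5919.5, then 6809, 5891 and 6471, then 5842, 5552 and 5919 CPM. For both chains het 1 was the highest and homo 2 the lowest library, and all 3 genotypes overlapped. The largest difference was that of Col1a1 in het against WT mice, a log2 fold change of 0.17 ± 0.08 (edgeR, adjusted p = 1.0). It was 0.07 without het 1, 0.11 without WT 2 and 0.07 without het 1, homo 2 and homo 3. That of Col1a2 in homo against het mice was -0.15 ± 0.05 (edgeR, unadjusted p = 0.012, adjusted p = 0.34), or -0.08 without those 3 libraries.

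Of the fibril-associated chains, Col12a1 and Col14a1 read lowest in homo libraries. Col12a1, which sits on type I fibrils in dense tissue, read 369.8, 323 and 343 CPM in WT, 385, 349 and 333 in het, and 307, 282 and 305 in homo libraries. Col14a1, of the same family, read 55.2, 50.2 and 44.2, then 56.9, 54.3 and 48.7, then 43.9, 41.0 and 40.4 CPM. All homo libraries of both genes lay below all WT and het libraries. Against het mice the log2 fold changes were -0.26 ± 0.06 for Col12a1 (edgeR, adjusted p = 0.14) and -0.35 ± 0.08 for Col14a1 (adjusted p = 0.11), and against WT mice -0.21 ± 0.06 (adjusted p = 0.34) and -0.25 ± 0.08 (adjusted p = 0.35). Without het 1, homo 2 and homo 3 the fold changes against het were -0.16 and -0.23 and those against WT -0.17 and -0.18.

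The type VI chains, whose trimers form beaded filaments around cells, were less uniform. Col6a3 read 208, 174 and 189 CPM in WT, 234, 189 and 189 in het, and 177, 151 and 174 in homo libraries, with homo below het and a log2 fold change of -0.28 ± 0.08 between them (edgeR, adjusted p = 0.27). That value was -0.17 without het 1 and -0.10 without het 1, homo 2 and homo 3. Col6a1 read 194, 187 and 182, then 207, 187 and 189.8, then 189, 156 and 189.8 CPM. Col6a2 read 115, 111 and 113, then 129, 117 and 112, then 112, 102 and 119 CPM. These 2 chains overlapped in all comparisons, and for all 3 type VI chains homo 2 was the lowest and het 1 the highest library.

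Type IV collagen of the basement membrane followed the same order as Col5a2 but with overlap. Col4a1 read 237, 245 and 229 CPM in WT, 279, 260.3 and 242 in het, and 217, 217 and 224 in homo libraries. Col4a2 read 199, 196 and 187, then 221, 212 and 195, then 182, 169.8 and 193 CPM. Homo libraries were below all het libraries for both chains and below all WT libraries for Col4a1 alone. In homo against het mice the log2 fold changes were -0.25 ± 0.05 for Col4a1 (edgeR, adjusted p = 0.11) and -0.20 ± 0.06 for Col4a2 (adjusted p = 0.24), and -0.21 and -0.16 without het 1, homo 2 and homo 3.

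Collagens of cartilage did not move as a group. Col2a1 read 27.9, 29.8 and 29.5 CPM in WT, 35.4, 28.7 and 35.0 in het, and 40.0, 28.7 and 33.2 in homo libraries, and its log2 fold change of 0.22 ± 0.10 in homo against WT mice was the highest of the 44 genes (edgeR, adjusted p = 0.53). It was 0.09 without homo 1 and 0.46 without het 1, homo 2 and homo 3, which leaves homo 1 alone. Col11a1 went the opposite way, at 345, 327 and 305, then 361, 336 and 364, then 309.5, 291 and 291 CPM, with homo below het by -0.25 ± 0.05 on the log2 scale (adjusted p = 0.11), or -0.18 without het 1, homo 2 and homo 3. Its partner Col11a2 read 364, 345 and 328, then 394, 326 and 393, then 373, 328 and 351 CPM. The 3 genotypes of Col2a1 and Col11a2 overlapped.

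The type IX chains, which dot the surface of cartilage fibrils, overlapped in every comparison. Col9a1 read 43.2, 43.8 and 38.5 CPM in WT, 42.2, 37.5 and 49.1 in het, and 38.5, 34.7 and 42.3 in homo libraries. Col9a2 read 59.4, 61.2 and 59.9, then 57.7, 57.0 and 65.5, then 62.2, 60.6 and 65.8 CPM. Col9a3 read 28.0, 27.2 and 30.5, then 32.2, 29.4 and 32.1, then 32.1, 26.0 and 29.6 CPM. Each of their adjusted p-values in edgeR was at least 0.57.

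Col10a1, made by hypertrophic chondrocytes, read 60.9, 61.5 and 70.3 CPM in WT, 74.3, 60.7 and 86.3 in het, and 71.3, 61.2 and 53.5 in homo libraries, and the genotypes overlapped. Col24a1, a fibrillar chain of bone, read 58.1, 55.0 and 59.1, then 58.8, 47.9 and 57.3, then 54.7, 42.8 and 47.3 CPM. Homo libraries of Col24a1 were all below WT, with a log2 fold change of -0.25 ± 0.08 (edgeR, adjusted p = 0.41), which was -0.07 without het 1, homo 2 and homo 3.

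Of the membrane-spanning collagens, Col25a1, found in neurons, had the most negative log2 fold change of the 44 genes in homo against WT mice, -0.50 ± 0.14 (edgeR, adjusted p = 0.33), or -0.52 without het 1, homo 2 and homo 3. It read 11.08, 11.03 and 10.5 CPM in WT, 9.08, 10.7 and 7.17 in het, and 7.61, 8.70 and 6.81 in homo libraries, so homo lay below WT. Col13a1, a collagen of cell adhesion sites, read 40.3, 40.4 and 41.7, then 43.2, 38.1 and 41.0, then 38.3, 39.1 and 38.03 CPM. Its homo libraries were all below WT but overlapped het. Col17a1, the hemidesmosome collagen of basal epithelial cells, read 28.1, 27.1 and 30.9, then 29.5, 32.0 and 24.7, then 28.3, 26.8 and 28.4 CPM and did not separate the genotypes.

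Among the other collagens, Col26a1 read 31.8, 32.2 and 29.5 CPM in WT, 32.3, 33.3 and 31.3 in het, and 31.1, 29.5 and 33.5 in homo libraries, with full overlap. Col28a1, a chain found near nerves, read 20.04, 20.28 and 19.5, then 24.0, 20.34 and 20.8, then 18.1, 15.2 and 19.3 CPM, the same order of genotypes as Col5a2. Its log2 fold change in homo against het mice was -0.31 ± 0.09 (edgeR, adjusted p = 0.27), and -0.18 without het 1, homo 2 and homo 3. The other 16 members had edgeR adjusted p-values of at least 0.33 in every comparison, and Col19a1 and Col6a6, the only 2 below 1 CPM on average, had the widest errors.

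**Figure D4:**
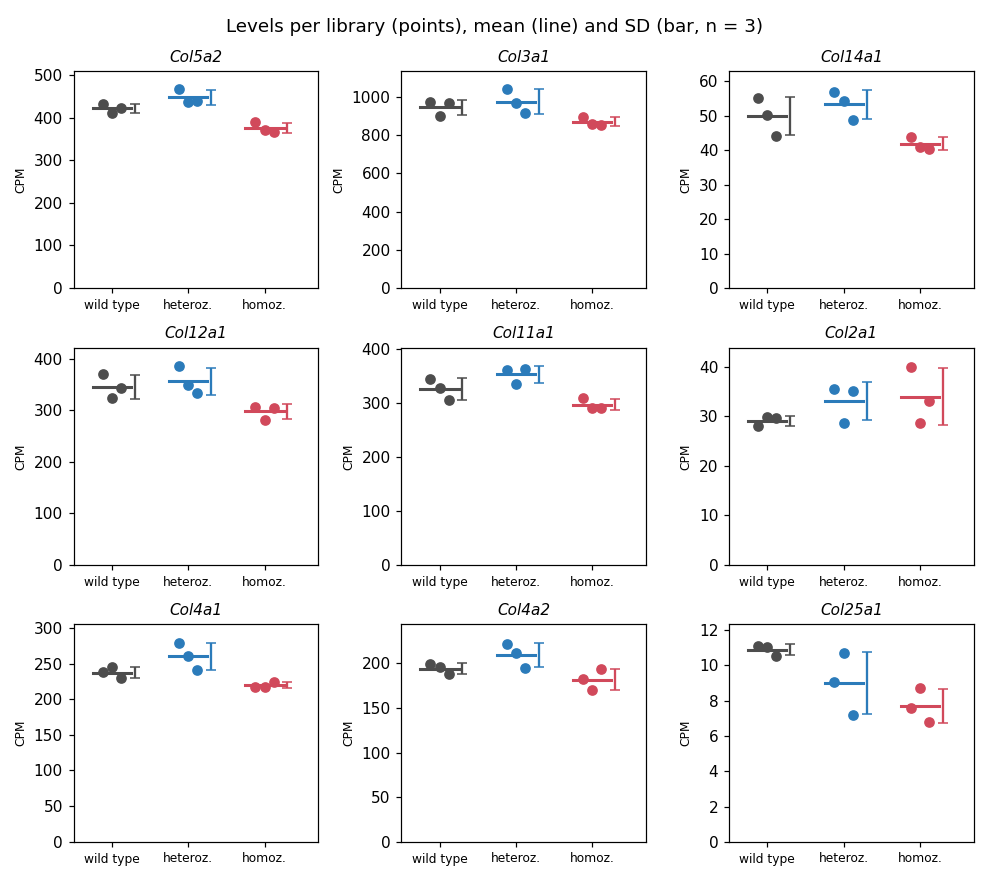
CPM (vertical, from 0) of 9 collagen genes in each library by genotype (horizontal), with points for libraries, a line for the mean and a bar for the SD (n = 3). The 3 genotypes of Col5a2 do not overlap, though the highest WT library (432 CPM) lies close to the lowest het library (436 CPM). Col2a1 and Col25a1 scatter within het and homo mice.

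The deleted enhancer lies on chromosome 10, as do 5 of the collagen genes, so their distance was compared with their values. Col10a1 (chr10:34389981-34397085, plus strand, GRCm38) is nearest at 10.4 Mb from the stretch between Taar1 and Taar2, followed by Col13a1 at 37.9 Mb, Col6a2 at 52.7 Mb, Col6a1 at 52.8 Mb and Col18a1 at 53.1 Mb. Their log2 fold changes in homo against WT mice were -0.05, -0.09, -0.03, -0.08 and -0.0023, in that order, with edgeR adjusted p-values of 0.68 to 0.99. Without het 1, homo 2 and homo 3 they were 0.15, -0.09, -0.02, 0.0082 and 0.01, so those of Col10a1, Col6a1 and Col18a1 changed sign. No collagen gene on this chromosome was called.

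Genes that make, cut and sense collagen gave no call either. Of 18 genes for collagen folding and modification (prolyl and lysyl hydroxylases, chaperones), 13 for procollagen processing and crosslinking, 10 for degradation, 8 tested collagen receptors and 15 laminins and other basement membrane partners, none passed the adjusted edgeR threshold in any comparison. In homo against WT mice the log2 fold change was below 0 for 11, 8, 9, 8 and 13 of them, with list medians of -0.0045, -0.06, -0.10, -0.15 and -0.09. Against het mice it was below 0 for 14, 10, 10, 8 and 13, with medians of -0.03, -0.09, -0.15, -0.14 and -0.13. In het against WT mice 8, 4, 2, 2 and 3 were below 0, with medians of 0.03, 0.03, 0.01, 0.01 and 0.03. Summed receptors were 651 to 665 CPM in WT, 639 to 687 in het and 599.9 to 608 in homo libraries, with homo below both, homo 1 included. Summed degradation genes were also lower in homo (1877 to 2023 CPM) than in WT libraries (2046 to 2178 CPM). So were basement membrane partners, narrowly, at 1531 to 1631.9 against 1634.5 to 1639.5 CPM. Both of these sums overlapped between homo and het libraries.

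In homo against het mice, the gene of smallest p in each of these lists had a fold change below 0. Lama2, a laminin chain of muscle and nerve basement membranes, had a log2 fold change of -0.45 ± 0.09 (edgeR, adjusted p = 0.082). Itgb1, the shared chain of the collagen-binding integrins, was at -0.15 ± 0.04 (adjusted p = 0.22) and Timp3, a matrix-bound inhibitor of metalloproteinases, at -0.17 ± 0.05 (adjusted p = 0.24). Loxl4, a lysyl oxidase that crosslinks collagen, was at -0.28 ± 0.09 (adjusted p = 0.30) and Plod1, a lysyl hydroxylase, at -0.19 ± 0.06 (adjusted p = 0.32).

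Most markers of stromal and bone cells leaned the same way as the collagens. No marker of any list below passed in edgeR in any comparison. In homo against WT mice, all 8 fibroblast markers, all 8 endothelial and mural markers and all 7 osteoclast markers had log2 fold changes below 0, with medians of -0.12, -0.14 and -0.13, as did 6 of 9 osteoblast and osteocyte markers (median -0.04). Against het mice the counts were 7, 8, 7 and 6, with medians of -0.11, -0.16, -0.15 and -0.17. Fibroblast markers summed to 646 to 662 CPM in WT and 605 to 634 in homo libraries, and endothelial and mural markers to 713 to 728 and 653 to 685, with no overlap in either. The other 2 lists overlapped, with osteoblast and osteocyte markers at 1142 to 1172 and 1068 to 1178 CPM. Osteoclast markers were at 1022.5 to 1173 and 915 to 1032.5 CPM. Bglap2, the osteoblast marker of smallest p in homo against WT mice, was higher in homo mice (unadjusted edgeR p under 0.05). Pdgfra, a fibroblast receptor, was at -0.17 ± 0.06 in homo against het mice (edgeR, adjusted p = 0.32), the pericyte gene Rgs5 at -0.18 ± 0.05 (adjusted p = 0.19), the bone matrix gene Ibsp at -0.21 ± 0.06 (adjusted p = 0.28) and the osteoclast receptor Calcr at -1.15 ± 0.35 (adjusted p = 0.28).

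Chondrocyte markers leaned upwards against WT in both mutant groups, without a call. They summed to 57.5 to 63.6 CPM in WT, 69.1 to 76.0 in het and 60.2 to 69.3 in homo libraries, and 9 of 9 were above 0 in het against WT mice (median 0.60) and 7 of 9 in homo against WT mice (median 0.39). Hapln1, a link protein of cartilage, was at 0.60 ± 0.16 in het against WT mice (edgeR, adjusted p = 1.0), and Sox9 at -0.23 ± 0.11 in homo against het mice (adjusted p = 0.50).

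Neuron, sustentacular and glial lists differed from the stromal ones in homo against WT mice. Horizontal basal cell markers, also epithelial, leaned lower there, as the stromal ones did. Olfactory sensory neuron markers summed to 7106 to 7180 CPM in WT, 7169 to 7655 in het and 7360.2 to 7891 in homo libraries, with homo above WT, and Rtp1, a receptor transporter, was at 0.14 ± 0.04 in homo against WT mice (edgeR, adjusted p = 0.35). Sustentacular markers summed to 3255 to 3392, 3094 to 3365 and 3160 to 3336 CPM, and ensheathing glia markers to 300.3 to 331, 316 to 349 and 297 to 345 CPM, with overlap in all comparisons. Their genes of smallest p in homo against het mice were Cyp1a2 at -0.17 ± 0.06 (adjusted p = 0.37) and Sox10 at -0.13 ± 0.07 (adjusted p = 0.51). Cyp1a2 was the only 1 of 7 sustentacular markers below 0 there (median 0.01), and 4 of 6 glia markers were below 0 (median -0.07). Horizontal basal cell markers summed to 183 to 226, 143 to 217 and 168 to 180.4 CPM, with homo below WT. Of these 6 markers, 5 were below 0 in homo against WT mice (median -0.16) and 4 in homo against het mice (median -0.05). Trp63, of smallest p in homo against het mice, went the other way at 0.13 ± 0.07 (edgeR, adjusted p = 0.54). Whether tissue make-up, neuron content or the vomeronasal reads account for the lower collagen levels was not tested.

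**Figure D5:**
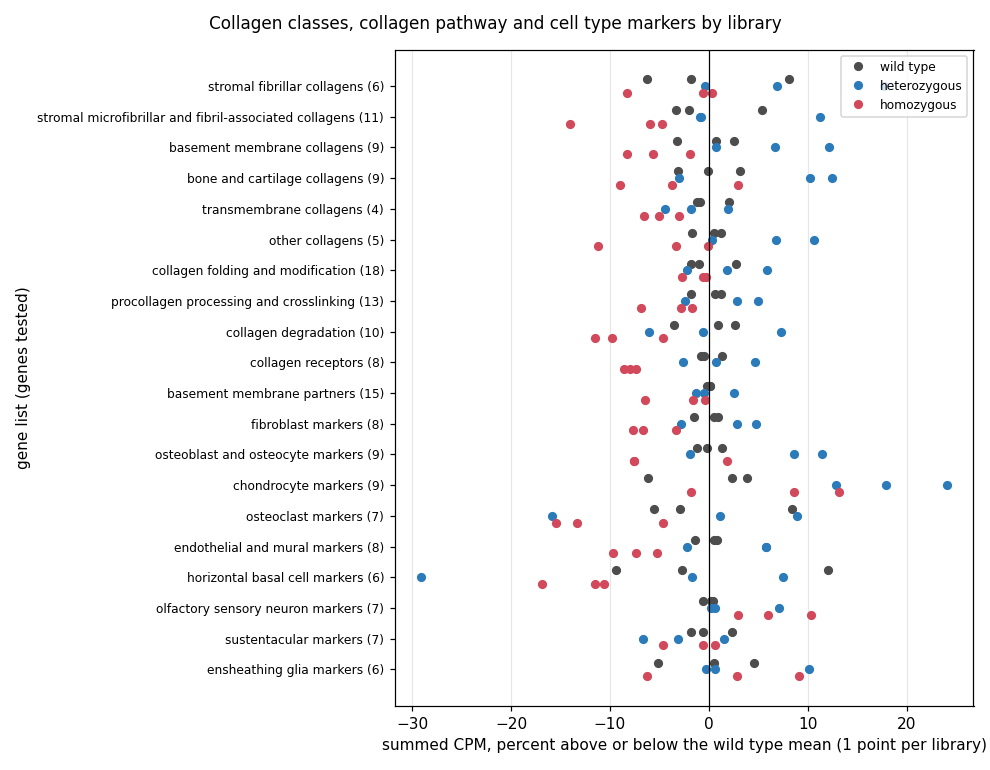
Summed CPM of each gene list as the percent above or below the WT mean (horizontal), 1 point per library coloured by genotype, for collagen classes, collagen pathway lists and cell type markers (vertical, number of genes tested in brackets). Homo libraries sit left of the WT libraries for the microfibrillar and fibril-associated and the transmembrane collagens. They also do for collagen degradation, collagen receptors, basement membrane partners, and fibroblast, endothelial and mural, and horizontal basal cell markers. They sit right of the WT libraries for olfactory sensory neuron markers.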

How the data were processed

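RNA of whole MOE from 9 mice was sequenced after polyA selection with a strand-specific kit. The authors trimmed reads with Trimmomatic 0.36, aligned them with HISAT2 2.1.0 to mm10 and deposited raw counts per gene. The submitters' processing notes list HTSeq 0.6.1p1, whereas the study's methods name featureCounts, and the annotation and strand setting are not given in the sources used here. A second table, which the authors normalized with DESeq2 1.20.0, was not used here. Depth was 24583906 to 32631951 gene counts per library, so that 3 reads equal 0.0919 to 0.122 CPM. The 5 summary rows were left out. Of all reads they and the genes account for, 57.4 to 60.0% fell in genes, 21.6 to 22.4% in none, 16.9 to 19.4% were not unique and 1.29 to 1.35% ambiguous. Reads shared by similar collagen genes were therefore not counted.

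Groups came from the sample titles. Genes with at least 10 summed counts (20213) were fitted with edgeR 4.0.16 in R 4.3.3, using TMM and the quasi-likelihood test on all 9 libraries with a term for genotype alone, with Benjamini-Hochberg adjustment over all genes and a threshold of 0.05. CPM use TMM library sizes. Levels per kb use the longest protein-coding transcript of GENCODE M21 (GRCm38, the same assembly as mm10), and promoters are from RefSeq GRCm38.p6. The fit was also run on simulated counts with known changes, larger than nearly all of those in the collagen genes. That simulation gave every gene the same spread, so it does not show how well differences of the size seen here are found. Replicates of a genotype differed by more than sampling noise in all 9 pairs (chi-square of 4.34 to 15.1 per gene).

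Members, classes and lists were chosen with earlier results of these data known. Values in every library are given for the highest member per length of each class and the chains of the major trimers. They are also given for the 5 members of smallest p in each comparison and any called. The 5 of largest CV among those of at least 1 CPM are given as well. From each list the gene of smallest p is printed for at least 1 comparison, not the same one in every list. Col28a1 was added after its values were seen. Alternatives were DESeq2 size factors, raw library sizes, DESeq2 1.42.0 with and without independent filtering, no count filter, filterByExpr, a replicate block, a fit to the 6 libraries of a comparison alone and fits that omit 1 library. Leaving out the 3 libraries with high vomeronasal receptor reads and exon-union lengths were chosen after seeing the data.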

Additional observations from a re-analysis of the deposited data

How the results depend on the processing

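Under every alternative the median log2 fold change of the collagen genes stayed below 0 in homo against WT and homo against het mice and above 0 in het against WT mice, while the calls were few and moved. In homo against WT mice no collagen gene was called except by DESeq2, which called 2 with default settings and 1 without independent filtering. In homo against het mice the 1 call became 3 without a count filter, 0 with only the 6 libraries compared, 6 with DESeq2 by default, 5 without its independent filtering, 0 to 4 when 1 library was left out (4 without het 3, 0 without any other) and 0 without het 1, homo 2 and homo 3, an alternative chosen after seeing the data. With the replicate block it was 5 (Col5a2, Col6a3, Col11a1, Col12a1 and Col14a1). Whether the numbers pair the mice was not settled, since deviations from means of 3 libraries can neither show nor exclude it. Deviations of same-numbered libraries correlated at -0.199 to 0.366, with 0.308 and 0.366 for het and homo numbers 2 and 3. Het 3 and homo 3 differed by a chi-square of 4.21 per gene, below that of every same-genotype pair (4.34 to 15.1). Het against WT mice gave 0 collagen calls under each alternative. None of the 5 collagen genes of smallest p in each comparison reversed its direction.

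Over all genes the 10 calls in homo against WT mice became 47 with only the 6 libraries compared, 63 with DESeq2 by default, 54 without its independent filtering and 8 to 33 when 1 library was left out (33 without het 3, 16 without het 2). The 1 call in het against WT mice became 0 with the replicate block, 0 with the 6 libraries, 3 with either form of DESeq2 and 0 to 1 with 1 library left out (0 without WT 1, WT 3, het 2, het 3 or homo 3). The 23 calls in homo against het mice became 50 without a count filter, 41 with the replicate block, 11 with the 6 libraries, 130 with DESeq2 by default, 126 without its independent filtering, 7 to 190 with 1 library left out (190 without het 3, and 7 to 11 without WT 1, WT 2, het 1, het 2 or homo 2) and 6 without het 1, homo 2 and homo 3. The cause of these shifts was not tested. The summed collagen difference in homo against WT mice, -3.47%, ran from -5.89 to 0.065% with 1 library left out (0.065% without WT 1). That in het against WT mice, 7.40%, ran from 2.98 to 11.3%, and that in homo against het mice, -10.1%, from -13.2 to -6.26%. Depth limits Col19a1, Col6a6, Col4a3 and Col4a4, with 129 to 473 reads over all libraries.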
